A study of Mus musculus with 6 samples.

Results

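The Kruppel-like factor (KLF) family was examined in mature CD4 single positive (SP) thymocytes through 10 of its genes, *Klf2*, *Klf3*, *Klf4*, *Klf6*, *Klf7*, *Klf9*, *Klf10*, *Klf11*, *Klf12* and *Klf13*. They were found by their symbol in the array annotation, out of 19752 genes measured, and each had a single row of values. RNA came from thymocytes sorted as Va2hi CD24lo CD4 SP cells, and in both genotypes the mice had the OT-II TCR transgene, which fixes TCR specificity. The dKO cells carried floxed alleles of *Utx* (*Kdm6a*) and *Jmjd3* (*Kdm6b*), which encode histone H3 lysine demethylases acting on the Polycomb mark, and *Cd4*-Cre deletes these alleles from the CD4+CD8+ double positive (DP) stage onward. The wild-type cells were from Cre-negative mice, so that the controls lacked Cre as well as the deletion. The study's methods describe these controls as littermates that also carried floxed *Jmjd3* or *Utx* alleles. By the same methods, mice were female unless stated otherwise. Each genotype was hybridized to 3 arrays, which the labels call biological replicates with no word on whether they were separate mice, and p-values measure the spread between these arrays. The ages of these mice are not given for each array.

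KLF proteins are zinc finger transcription factors that share a DNA-binding domain for CACCC and GC-rich sequences and differ in the rest of the protein. Some members carry activating domains (Klf2, Klf4, Klf6 and Klf7 among them), Klf3 and Klf12 recruit the CtBP corepressors, and Klf9, Klf10, Klf11 and Klf13 recruit the Sin3 corepressors. In T cells, Klf2 is known for keeping naive cells quiescent and for the expression of receptors needed to leave the thymus, and its transcription is driven by Foxo1 and by MEF2 factors downstream of the kinases MEK5 and ERK5. The comparison asked whether *Klf2* and its paralogs differed between dKO and wild-type cells, and whether they did so to the same extent.

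Promoter sequences of 4 members are shown because these genes moved in opposite directions in dKO cells, *Klf2* and *Klf3* down and *Klf6* and *Klf9* up, as described below. Each is the run of 250 bases before the annotated RefSeq start on GRCm38.p6, written 5′ to 3′ on the strand of the gene. They lie at chr8:72318812-72319061 for *Klf2*, chr5:64803271-64803520 for *Klf3*, chr13:5861239-5861488 for *Klf6* and chr19:23140976-23141225 for *Klf9*, all on the plus strand. Capitals mark matches on either strand. The letters searched were CACCC, bound by KLF proteins, then CCGCCC, known as the GC box of Sp and KLF factors, then TGTTTAC, bound by forkhead factors, and last the MEF2 consensus. Overlapping matches run together.
Klf2: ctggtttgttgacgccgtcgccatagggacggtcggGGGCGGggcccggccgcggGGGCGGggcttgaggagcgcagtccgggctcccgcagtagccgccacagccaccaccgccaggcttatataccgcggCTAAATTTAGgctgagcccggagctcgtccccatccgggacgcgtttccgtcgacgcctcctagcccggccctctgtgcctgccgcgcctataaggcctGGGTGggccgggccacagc
Klf3: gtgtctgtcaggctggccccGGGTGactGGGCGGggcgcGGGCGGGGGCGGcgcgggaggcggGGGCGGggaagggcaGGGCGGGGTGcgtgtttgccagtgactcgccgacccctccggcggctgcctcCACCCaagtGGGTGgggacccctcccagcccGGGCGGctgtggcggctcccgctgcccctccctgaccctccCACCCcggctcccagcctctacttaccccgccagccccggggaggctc
Klf6: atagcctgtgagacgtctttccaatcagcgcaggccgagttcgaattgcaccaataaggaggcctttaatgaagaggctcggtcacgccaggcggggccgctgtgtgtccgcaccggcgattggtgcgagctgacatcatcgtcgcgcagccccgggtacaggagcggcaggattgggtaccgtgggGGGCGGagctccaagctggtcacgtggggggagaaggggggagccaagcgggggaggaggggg
Klf9: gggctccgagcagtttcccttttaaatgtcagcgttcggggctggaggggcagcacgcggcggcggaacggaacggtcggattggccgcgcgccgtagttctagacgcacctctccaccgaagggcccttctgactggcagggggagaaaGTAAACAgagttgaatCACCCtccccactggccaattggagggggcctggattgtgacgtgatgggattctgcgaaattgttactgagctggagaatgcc

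The RefSeq promoter table held 9 of the 10 members, without *Klf10*. The MEF2 consensus was matched in 1 of these 9, that of *Klf2*, where CTAAATTTAG lies 118 to 109 bases before the start, and in 2.92% of 32851 promoters of the same length. The forkhead letters were matched in 1 of the 9, that of *Klf9*, 100 to 94 bases before the start, and in 3.17% of all promoters. CACCC was found in 6 of the 9 member promoters against 52% of all promoters, and CCGCCC in 7 of the 9 against 32.7%. The *Klf3* sequence held 5 matches to CACCC and 6 to CCGCCC, the *Klf2* sequence 1 and 2. These matches describe letters in a window, and no binding was measured at them here.

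Among the 10 KLF genes, 4 were lower in dKO cells, *Klf2*, *Klf3*, *Klf10* and *Klf12*, and 3 were higher, *Klf6*, *Klf9* and *Klf11*. *Klf4*, *Klf7* and *Klf13* did not pass the threshold of 0.05 on the adjusted p. Over all genes tested, 10% were lower and 13.1% higher by the same limma test, adjusted over all of them, so that 7 of the 10 members stand against 23.1% of genes with a change in either direction. The 3 dKO arrays were all below the 3 wild-type arrays in 5 members (16.5% of all genes) and all above them in 3 (21.3% of all genes), or 8 without overlap against 37.7%. The median size of the log2 fold change was 0.45 in these 10 members and 0.08 over all genes. Over all 17 KLF genes on the array it was 0.11, with the same 4 lower and 3 higher. The 10 members were chosen with earlier results of these arrays known, so these contrasts are no independent evidence about the family. Values are log2 signals after RMA, and the signal of a row depends on its probes, so levels are compared between arrays and not between genes.

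**Figure D1:**
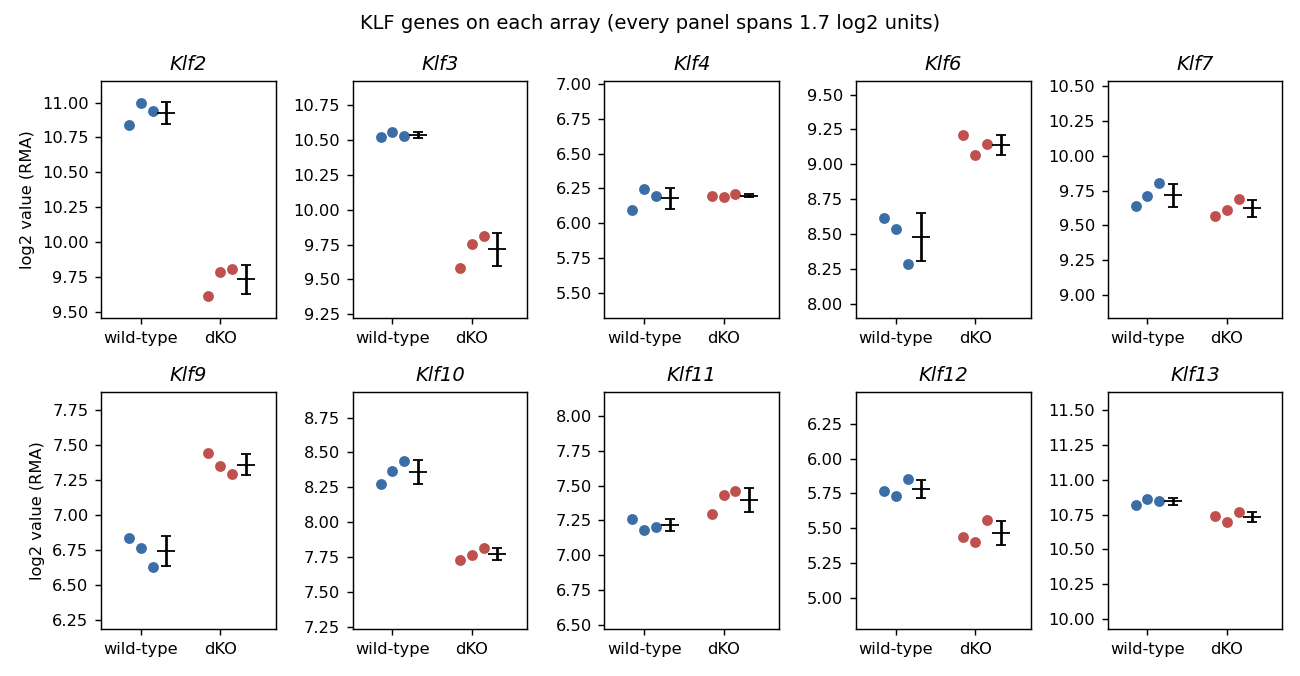
Log2 value (RMA) of each of the 10 KLF genes on every array, wild-type in blue and dKO in red, with the mean and SD of 3 arrays in black. The y axis is cut but spans 1.7 log2 units in every panel, so that steps can be compared while heights cannot. *Klf2*, *Klf3*, *Klf10* and *Klf12* sit lower in dKO cells and *Klf6* and *Klf9* higher, with no overlap. The groups of *Klf11* (higher) and *Klf13* (lower) also do not overlap, with smaller steps.

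*Klf2* had log2 values of 10.84, 11.00 and 10.94 in wild-type and of 9.61, 9.78 and 9.80 in dKO cells. The 2 groups were far apart compared with their spread, and the transcript remained at 43.8% of its wild-type level. This 2.28-fold decrease (-1.19 ± 0.06 on the log2 scale, difference and its standard error, adjusted p = 1.3e-06 by limma) was the 69th in size among decreases of all genes. It was among the 0.582% of genes that were lower by 2-fold or more, the only one of the 10 members in that set. RNA was measured in bulk, so that fewer cells with the transcript and less transcript per cell cannot be told apart.

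*Klf3*, which encodes a CtBP-binding repressor and whose transcription depends on Klf family activators in other blood cells, was next. Its log2 values were 10.52, 10.56 and 10.53 in wild-type and 9.58, 9.75 and 9.81 in dKO cells. The wild-type arrays lay within 0.04 of each other, and every dKO array was lower. The fold change was 1.77-fold down (-0.82 ± 0.06 on the log2 scale, adjusted p = 1.3e-05). In both *Klf2* and *Klf3*, the lowest of the 6 values was that of dKO replicate 1.

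*Klf12*, the other CtBP-binding member of the 10, had log2 values of 5.77, 5.73 and 5.86 in wild-type and 5.44, 5.40 and 5.56 in dKO cells. It was below the median of every array (6.27 to 6.33), in a range that RMA compresses. The groups did not overlap, and the decrease of 0.32 log2 units (-0.32 ± 0.06) passed with an adjusted p of 0.0031. Student's t-test did not call it after adjustment (adjusted p = 0.051). The third CtBP-binding gene of the family, *Klf8*, differed by -0.10 (adjusted p = 0.45).

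The activating members did not move together. *Klf6*, a widely expressed factor induced early after stimulation of many cell types, had log2 values of 8.62, 8.54 and 8.28 in wild-type and 9.21, 9.06 and 9.15 in dKO cells. The wild-type arrays of *Klf6* spread more than those of any other member (SD 0.17), and all of them were below the dKO arrays. *Klf6* was 1.58-fold higher in dKO cells (0.66 ± 0.08 on the log2 scale, adjusted p = 2.9e-04). Without wild-type replicate 3, the lowest array, the log2 fold change was 0.56 and still past the threshold.

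*Klf4* encodes a factor that restrains proliferation of CD8 T cells and is known for reprogramming to pluripotency. Its log2 values were 6.10, 6.24 and 6.20 in wild-type and 6.20, 6.19 and 6.21 in dKO cells, below the median of every array. The groups overlapped, with a log2 fold change of 0.02 (95% interval -0.09 to 0.13, adjusted p = 0.84). *Klf7*, best known in the nervous system, had values of 9.64, 9.71 and 9.80 in wild-type and 9.57, 9.61 and 9.69 in dKO cells. They too overlapped (log2 fold change -0.09, 95% interval -0.22 to 0.03, adjusted p = 0.29). The arrays give no detection call, and a signal as low as that of *Klf4* leaves little room for a decrease to be seen.

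Among the Sin3-binding members, changes ran in both directions. *Klf9*, a gene induced by glucocorticoid and thyroid hormones, had log2 values of 6.84, 6.76 and 6.63 in wild-type and 7.44, 7.35 and 7.29 in dKO cells. Every dKO array was above every wild-type array, a 1.54-fold increase (0.62 ± 0.06 on the log2 scale, adjusted p = 9.8e-05). *Klf10*, first described as a gene induced early by TGF-β, had values of 8.27, 8.36 and 8.44 in wild-type and 7.73, 7.77 and 7.82 in dKO cells. It was 1.50-fold lower in dKO cells with no overlap (-0.59 ± 0.06 on the log2 scale, adjusted p = 5.1e-05).

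*Klf11*, the closest relative of *Klf10* and also TGF-β-inducible, had log2 values of 7.26, 7.18 and 7.20 in wild-type and 7.30, 7.43 and 7.46 in dKO cells. The lowest dKO array was 0.04 above the highest wild-type array. The difference of 0.18 ± 0.06 on the log2 scale (adjusted p = 0.040) passed the threshold narrowly. The call was lost in 9 of 15 alternative settings, among them a second quantile normalization, Student's t-test and leaving out wild-type replicate 2, wild-type replicate 3, dKO replicate 2 or dKO replicate 3. *Klf13*, an activator of *Ccl5* in T cells, had values of 10.82, 10.86 and 10.85 in wild-type and 10.74, 10.70 and 10.77 in dKO cells. All dKO arrays of *Klf13* were lower, but by little (-0.11 ± 0.05 on the log2 scale, adjusted p = 0.12). The difference in *Ccl5* was 0.00 (adjusted p = 0.99).

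**Figure D2:**
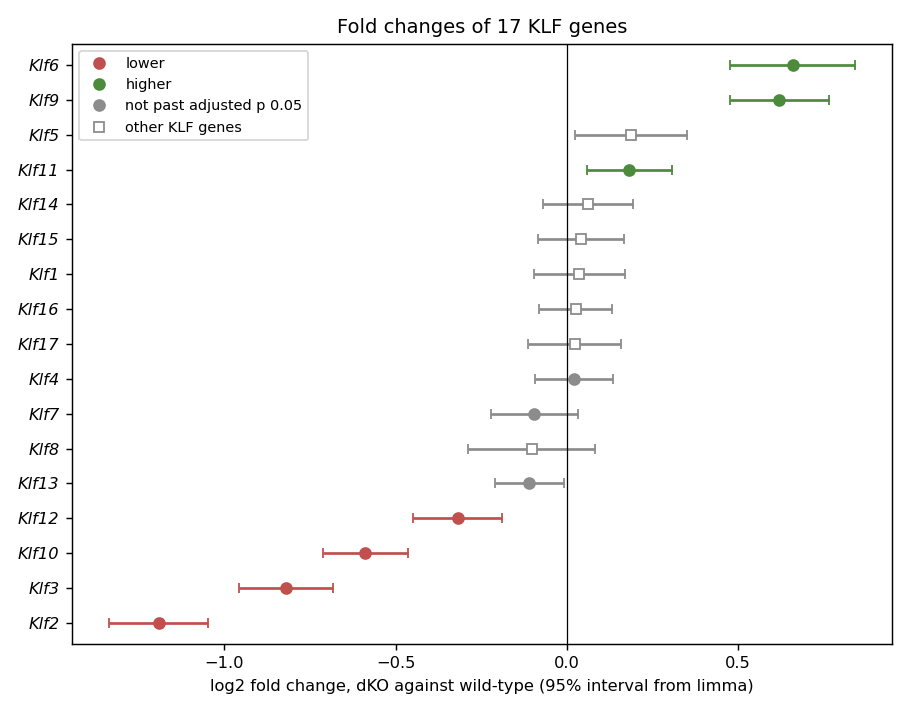
Log2 fold change of dKO against wild-type with its 95% interval from limma for all 17 KLF genes on the array, circles for the 10 members and squares for the other 7. *Klf2* is the lowest at -1.19 and *Klf6* the highest at 0.66, while the other 7 genes lie between -0.10 and 0.19.

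The array also measured 7 other KLF genes (*Klf1*, *Klf5*, *Klf8*, *Klf14*, *Klf15*, *Klf16* and *Klf17*). None of these passed the threshold in limma in either direction, and their log2 fold changes ran from -0.10 to 0.19 (lowest adjusted p = 0.099, for *Klf5*). *Klf5* also was the only one of the 7 whose dKO arrays all lay above the wild-type arrays. Grouped by partner over the 17 genes, 1 of 6 activating members was lower and 1 higher, 2 of 3 CtBP-binding members were lower, and 1 of 6 Sin3-binding members was lower and 2 were higher. These small counts, and that of the Sp factors, are to be read against 10% of all genes lower and 13.1% higher. The Sp factors share the zinc fingers of the KLF family. Of 8 that were measured, *Sp6* was lower, with log2 values of 7.15, 7.30 and 7.25 in wild-type and 5.98, 6.16 and 5.78 in dKO cells (-1.26 ± 0.09 on the log2 scale, adjusted p = 6.6e-06). The other 7 Sp factors did not pass (lowest adjusted p = 0.098).

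To compare *Klf2* with its paralogs directly, the log2 value of another gene was subtracted from that of *Klf2* in the same array, and these differences were compared between genotypes. On these values the decrease of *Klf2* was larger than the change of each of the 9 paralogs, though for *Klf4* and *Klf12*, dim on every array, a decrease may be understated. The smallest difference was that from *Klf3*, at -0.37 on the log2 scale (95% interval -0.57 to -0.17, adjusted p = 0.0020). *Klf10* followed at -0.60 (95% interval -0.79 to -0.41, adjusted p = 3.7e-05) and *Klf12* at -0.87 (95% interval -1.07 to -0.68, adjusted p = 1.9e-06). The remaining 6 differences, from *Klf13* to *Klf6*, ran from -1.08 to -1.85.

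These intervals and adjusted p-values use the moderated variance of each of the 2 genes. This form was chosen after seeing the data, because all differences share the arrays of *Klf2* and a spread pooled over them was treated as known without error. On simulated data both forms called equal genes somewhat too often, the pooled form more so. The pooled form and Student's t-test (adjusted p of 7.6e-04 or less) called the same 9 paralogs. Almost all genes differ from *Klf2* in this way, since 99.3% of the others (99.4% with the pooled spread) showed a smaller decrease or a rise by the same test, and the 9 calls are not particular to the family. Only 0.213% of genes, 42 in all, fell more than *Klf2* (0.238% with the pooled spread), and no KLF gene was among them.

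**Figure D3:**
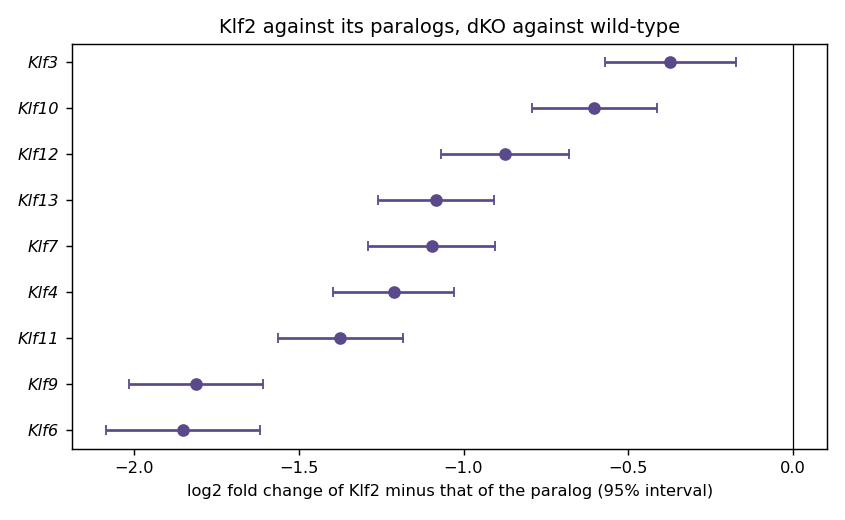
Log2 fold change of *Klf2* minus that of each of 9 paralogs, dKO against wild-type, with 95% intervals from the moderated variances of both genes. All intervals lie below 0, from *Klf3* at -0.37 to *Klf6* at -1.85.

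Ordered by fold change, the members from lowest to highest were *Klf2*, *Klf3*, *Klf10*, *Klf12*, *Klf13*, *Klf7*, *Klf4*, *Klf11*, *Klf9* and *Klf6*. Neighbours were compared in the same way, each p adjusted over the differences of 1 member from all other genes and not over the pairs. The pairs came from sorting the fold changes that were tested, and this form called equal genes somewhat too often on simulated data. Along the falling side, *Klf3* and *Klf10* (-0.23, adjusted p = 0.019), *Klf10* and *Klf12* (-0.27, adjusted p = 0.0077) and *Klf12* and *Klf13* (-0.21, adjusted p = 0.023) differed past the threshold. A decrease of *Klf12*, dim on every array, may be understated. *Klf13* and *Klf7* (adjusted p = 0.89), *Klf7* and *Klf4* (adjusted p = 0.32) and *Klf4* and *Klf11* (adjusted p = 0.23) did not. On the rising side, *Klf11* and *Klf9* differed (-0.44, adjusted p = 0.0056), while *Klf9* and *Klf6* did not (-0.04, 95% interval -0.27 to 0.19, adjusted p = 0.72).

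The genes with the pattern most like that of *Klf2* were sought by the root mean square difference of log2 values over the 6 arrays, after centring each gene on its own mean. The nearest were *St3gal6* (0.064), *Cers6* (0.065), *Adamts3* (0.073), *Flt3l* (0.076) and *Tmem64* (0.079). *Klf3* came 100th of 19751 genes at 0.19 and *Klf10* 281st at 0.31. The measure mainly picks genes with a decrease of the same size, because the arrays fall into 2 genotypes.

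Genes known to need Klf2 in T cells were mostly lower in dKO cells, 4 of the 5 measured (*Klf3* included), against 10% of all genes. Their median log2 fold change was -0.82, against 0.01 over all genes. These genes were listed with earlier results of these arrays known, and the count is no independent evidence of a direction. *S1pr1*, the sphingosine phosphate receptor that guides thymocytes out of the thymus, fell by more than *Klf2*, with a difference of 3.09 between their log2 fold changes (95% interval 2.87 to 3.32, adjusted p = 9.4e-08). *Itgb7*, the β7 integrin chain, fell by 1.55 log2 units (adjusted p = 1.0e-07), which was 0.36 more than *Klf2* (95% interval 0.17 to 0.55, adjusted p = 0.0020). *S1pr4*, another receptor of the same lipid, fell by 0.75 (adjusted p = 5.9e-05), less than *Klf2* (difference -0.44, adjusted p = 0.0011).

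*Ccr7*, which encodes a chemokine receptor of naive T cells, stood apart from these genes. Its log2 values were 12.51, 12.53 and 12.54 in wild-type and 12.56, 12.48 and 12.42 in dKO cells. The groups overlapped (log2 fold change -0.03, adjusted p = 0.70), and *Klf2* fell more than *Ccr7* did (difference -1.16, 95% interval -1.34 to -0.97, adjusted p = 1.6e-07). Of 6 measured genes known to rise in thymocytes without Klf2, none was higher in limma, none was higher at an unadjusted p under 0.05, and 2 were lower, *Cxcr3* (log2 fold change -0.23, adjusted p = 0.0077) and *Il2rb* (-0.29, adjusted p = 0.020). Over all genes, 10% were lower and 13.1% higher. *Il4*, *Eomes*, *Zbtb16* and *Ccr3*, the rest of those measured, were below the median of every array, where a change may be understated. The call of *Il2rb* was lost when either replicate 1 was left out, that of wild-type (adjusted p = 0.052) or that of dKO (adjusted p = 0.076).

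The counts for the lists that follow are to be read against 10% of all genes lower and 13.1% higher. Among 15 genes measured upstream of *Klf2*, 3 were lower and 1 was higher. *Foxo1*, a direct activator of *Klf2*, had log2 values of 11.07, 11.18 and 11.10 in wild-type and 10.11, 10.19 and 10.24 in dKO cells. Its log2 value fell by 0.94 (adjusted p = 1.8e-06), less than *Klf2* (difference -0.26, 95% interval -0.44 to -0.07, adjusted p = 0.013). *Map2k5*, which encodes MEK5, fell by 0.32 (adjusted p = 0.0017). *Mapk7*, which encodes ERK5, did not pass (log2 fold change 0.14, adjusted p = 0.066). Neither did *Mef2a* (-0.10, adjusted p = 0.20), *Mef2c* (-0.004, adjusted p = 0.98) or *Mef2d* (-0.03, adjusted p = 0.74). *Foxo4* fell by 0.14 (adjusted p = 0.049), a call that was lost without any one of the 6 arrays. *Smurf1*, a ubiquitin ligase that targets Klf2 protein, was higher (log2 fold change 0.45, adjusted p = 4.1e-04).

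Of 12 KLF cofactors, 1 was lower and 3 were higher. The acetyltransferase gene *Kat2b* fell by 0.58 log2 units (adjusted p = 1.9e-05), while *Sap30* (log2 fold change 0.43, adjusted p = 0.0015), *Hdac2* (0.31, adjusted p = 0.0026) and *Hdac1* (0.25, adjusted p = 0.0042), all parts of the Sin3 deacetylase complex, rose. *Sap30* was below the median of every array. The Sin3 genes themselves did not pass, *Sin3a* at -0.02 (adjusted p = 0.85) and *Sin3b* at 0.05 (adjusted p = 0.54). Of 10 quiescence and cell cycle genes linked to KLF factors, 3 were lower and 1 was higher. *Ccnd2*, encoding cyclin D2, fell by 2.85, *Ccne1*, encoding cyclin E1, by 0.93 (adjusted p = 6.5e-06), and *Tob1*, an antiproliferative gene, by 0.73 (adjusted p = 4.1e-05). *Cdkn1b*, the gene of the inhibitor p27, rose by 0.22 (adjusted p = 0.0048).

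Genes that respond to the signals known to induce single members moved in both directions. Of 10 measured TGF-β-responsive and TGF-β pathway genes, listed beside *Klf10* and *Klf11*, 6 were lower and *Smad3* was higher (log2 fold change 0.24, adjusted p = 0.013), with a median of -0.17. The count of higher genes was 0 by Student's t-test and without dKO replicate 2. *Smad7*, the inhibitory Smad that Klf10 is known to repress, fell by 1.05 (adjusted p = 1.6e-06), *Skil* by 0.53 (adjusted p = 3.6e-05), *Tgfbr2* by 0.27 (adjusted p = 0.0017) and *Itgae* by 0.26 (adjusted p = 0.0052). *Klf2* and *Smad7* could not be told apart by size (difference -0.15, 95% interval -0.34 to 0.05, adjusted p = 0.13).

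Of 9 glucocorticoid-responsive genes, listed beside *Klf9*, 1 was lower and 3 were higher. *Sgk1* fell by 1.11 log2 units (adjusted p = 3.6e-07), opposite to *Klf9*. *Ddit4* (0.30, adjusted p = 0.0013), *Nr3c1*, encoding the glucocorticoid receptor (0.22, adjusted p = 0.0090), and *Tsc22d3* (0.22, adjusted p = 0.022) rose, each by less than the 0.62 of *Klf9*, though these differences were not tested. The call of *Tsc22d3* was lost when wild-type replicate 3 (adjusted p = 0.067) or dKO replicate 1 (adjusted p = 0.075) was left out. Of 14 immediate early genes, the class to which *Klf6* belongs in stimulated cells, 4 were lower, namely *Fos* (-0.58, adjusted p = 9.0e-05), *Ier2* (-0.39, adjusted p = 6.0e-04), *Egr2* (-0.37, adjusted p = 7.4e-04) and *Nr4a1* (-0.66, adjusted p = 0.0061). *Jun* alone was higher (0.25, adjusted p = 0.011). The wild-type arrays of *Nr4a1* had an SD of 0.28, and Student's t-test did not call this gene (adjusted p = 0.13). By RT-PCR in Va2hi CD24lo CD4 SP cells, the study reported similar *Nr4a1* levels in wild-type and dKO mice. Over the 85 different genes of the pathway lists without the KLF genes, 24 were lower and 10 higher, with a median of -0.03.

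**Figure D4:**
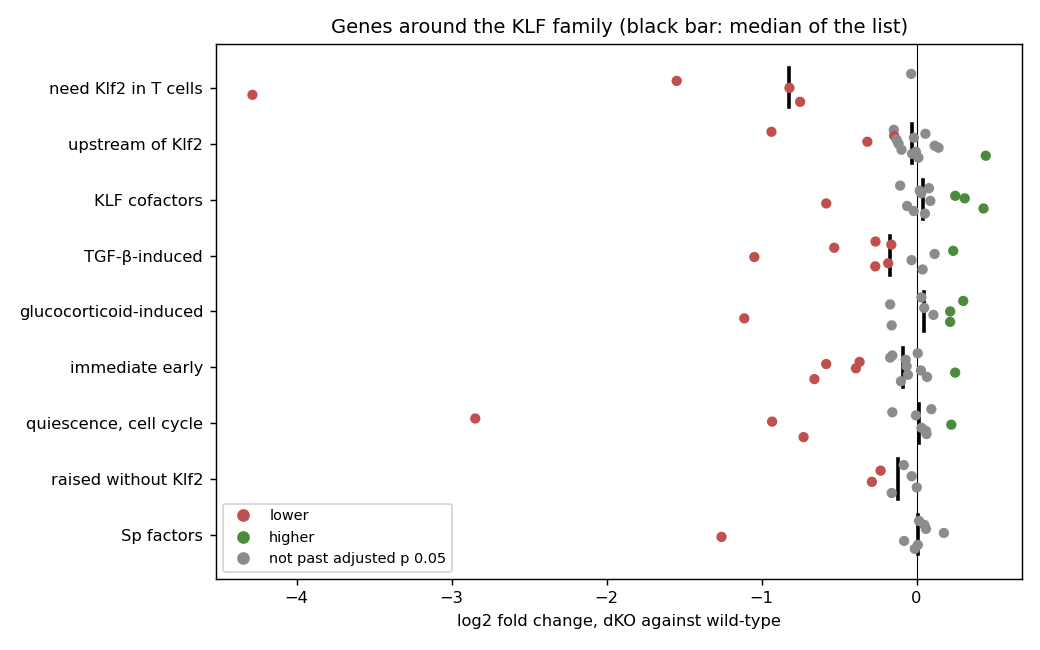
Log2 fold change of dKO against wild-type for each gene of the lists around the KLF family, each gene as 1 point. Red and green points passed the threshold as lower and higher, and grey points did not pass. Black bars mark list medians, at -0.82 for the genes that need Klf2, with *S1pr1* at the far left, at -0.17 for the TGF-β list and between -0.12 and 0.05 for the rest.

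The targeted *Kdm6a* fell by 0.67 log2 units (adjusted p = 2.6e-05) and *Kdm6b* differed by -0.09 (adjusted p = 0.32), without examining which probes lie in the deleted exons. All 7 T-cell markers measured were above the array median, and *Cd5* among them was lower in dKO cells (log2 fold change -0.43, adjusted p = 0.0023). Across genes, arrays correlated at 0.998 to 0.999 within and 0.991 to 0.993 between genotypes.

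*Klf2* and *Klf4* are also known in endothelium, where 1 of 6 marker genes, *Pecam1*, fell (log2 fold change -0.51, adjusted p = 9.0e-05) and the other 5, *Cdh5* and *Kdr* among them, were below the median of every array. The summed linear signal of the 6 was 1393 to 1445 in wild-type and 1020 to 1096 in dKO cells. *Pecam1* carried the fall of this sum, its mean log2 value going from 10.24 (wild-type) down to 9.73 (dKO). None of the other 5 endothelial markers passed the threshold (lowest adjusted p = 0.11 by limma, for *Kdr*). Expression of *Klf2* rises as DP thymocytes mature, and of 7 DP markers *Dntt* (log2 fold change 1.52, adjusted p = 1.4e-05) and *Cd8b1* (0.54, adjusted p = 3.8e-05) were higher while *Rag1* (-0.55, adjusted p = 0.044) and *Arpp21* (-0.25, adjusted p = 0.022) were lower. Their summed signal was 1327 to 1523 in wild-type and 2010 to 2254 in dKO cells, and 3 of the 7 were below the median on all arrays. *Cd8b1* (mean log2 value 9.57 in wild-type and 10.11 in dKO cells) and *Dntt* (7.67 and 9.19) carried the rise of this sum. No other DP marker was higher past the threshold. The part of either marker list in the values of *Klf2* was not tested.

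*Klf6* and *Klf4* are expressed in myeloid cells. Of 10 myeloid and dendritic markers, *Itgam* (log2 fold change -0.78, adjusted p = 6.8e-05) and *Cd68* (-0.31, adjusted p = 0.0032) were lower and *Lyz2* was higher (log2 fold change 0.81, adjusted p = 0.043), a call lost with any single array left out other than dKO replicate 3, and 6 of the 10 were below the median of all arrays. Their summed signal overlapped, at 560.3 to 626 in wild-type and 536 to 805 in dKO cells. *Lyz2* and *Cd74* had their lowest value in wild-type replicate 3 among the wild-type arrays and their highest value of all in dKO replicate 1, as did *Klf6* and *Klf9*. *H2-Aa* and *Fcer1g* shared this order, and the other myeloid markers did not. *Cd68* and *Csf1r* had their lowest value of all in dKO replicate 1 (6.61 and 5.37). The order was not particular to myeloid genes, since *Dntt* had it too (7.48 in wild-type replicate 3, 9.43 in dKO replicate 1). Its share over all genes was not counted. Without dKO replicate 1, *Klf6* was higher by 0.63 log2 units (adjusted p = 0.0021) and *Klf9* by 0.58 (adjusted p = 6.8e-04). The part of myeloid RNA in these values was not tested.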

How the data were processed

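Gene expression was measured in RNA of sorted mature CD4 SP thymocytes on 6 arrays, Affymetrix Mouse Gene 1.0 ST in the study's methods and in the row annotation, Mouse Exon 1.0 ST in the text of the GEO record. The deposited values are log2 signals that the authors made in Partek, with RMA named in the submitters' processing notes and no versions given in the sources used here. RMA evens out the distributions of the arrays, which would hide a change shared by most genes, and compresses differences of dim genes. All 6 columns were used.

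Of 25254 rows, 21496 carried 1 gene symbol. The brightest row was kept for each gene, which left 19752 genes. Symbols were updated by Entrez identifier through a RefSeq table of GRCm38.p6. The values were tested as deposited with limma 3.58.1 in R 4.3.3, with genotype alone in the model. P-values were adjusted over all genes by Benjamini-Hochberg, and 0.05 was the threshold. No filter was applied. The number of arrays limits precision. Alternatives were other normalizations, filters on dim genes, the mean of a gene's rows, variance models, Student's t-test (which the study's methods name for other data, not for the arrays), a replicate block and leaving out each array. The tests were tried on simulated data.

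The family members and gene lists were chosen with earlier results of these data known. Named genes were all members, up to 4 genes with the smallest p of each list, and the 5 genes nearest to *Klf2*. *Smad3*, *Jun*, *Foxo4*, *Cd74*, *Cdh5*, *Klf5* and *Klf8* were added to the text once their values were known. So were *H2-Aa*, *Fcer1g*, *Csf1r*, *Mapk7*, *Mef2a*, *Mef2c*, *Mef2d*, *Sin3a*, *Sin3b*, *Il4*, *Eomes*, *Zbtb16* and *Ccr3*. The marker lists also covered B cells, NK cells, erythroid cells and thymic stroma, in which *Cd79b* and *Nkg7* were lower and *Epcam* was higher.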

Additional observations from a re-analysis of the deposited data

How the results depend on the processing

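The directions and calls of *Klf2*, *Klf3*, *Klf6*, *Klf9* and *Klf10* and the 9 differences between *Klf2* and its paralogs were the same under all alternatives run. *Klf4* and *Klf12* were not among the 9876 brightest genes and have no value there. *Klf11* kept its direction but lost its call after a second quantile normalization (log2 fold change 0.15, adjusted p = 0.070), after cyclic loess (0.15, adjusted p = 0.082), and at 0.18 with an intensity trend and robust variances (adjusted p = 0.051), Student's t-test (adjusted p = 0.13) and the replicate block (adjusted p = 0.062). With single arrays left out, it ranged from 0.15 to 0.23. *Klf12* at -0.32 was not called by Student's t-test (adjusted p = 0.051). *Klf4*, near 0 throughout, turned to -0.021 without wild-type replicate 1 and reached up to 0.053 with other single arrays left out. The uncalled values of *Ccl5* and *Klf16* also changed sign, *Ccl5* to -0.0062 after quantile normalization and -0.017 after cyclic loess, with -0.070 to 0.079 over single arrays left out, and *Klf16* to -0.016 after cyclic loess, with -0.0049 to 0.050 over single arrays left out. Student's t-test called 1173 genes lower and 1392 higher against 1976 and 2587, and 6 pathway genes higher against 10. Among the brightest 50% of genes, 9766 fell less than *Klf2*, since fewer were tested. Apart from the construction of that filter, the cause of these shifts was not tested. *Foxo4*, *Lyz2*, *Sap30*, *Tsc22d3*, *Nr4a1*, *Jun*, *Smad3*, *Il2rb* and *Cd68* lost their call by Student's t-test. Deviations of same-numbered arrays from their group means correlated weakly (0.024 to 0.099), and not every array correlated best with its own number, so pairing was neither shown nor excluded and the arrays were not treated as pairs. With the replicate block, *Klf11* (0.18) and *Foxo4* lost and *Klf5* gained a call (adjusted p = 0.036). Signals near the bottom of the range, as for *Klf12*, limit the folds that can be seen.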
